A study of Mus musculus with 12 samples.

Results

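The genes described here are 7 genes of retinoic acid metabolism and binding, out of 31078 genes measured by RNA sequencing in embryonic mouse lungs. They were taken by gene symbol from a list of genes of retinoid synthesis, storage, breakdown and binding that was drawn up with earlier results of these data known, and all 7 were found and passed the filter on low counts. Rdh10 and Aldh1a3 act in the synthesis of retinoic acid, Dhrs3 works against it by reducing retinal, Lrat acts in the storage of its precursor, Cyp26b1 in its breakdown, and Crabp2 and Rxra bind it or act in its receptor.

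Lungs were taken at embryonic day 12.5 from C57BL/6 embryos and sequenced by side. The 4 groups were left lungs labelled Intu knockout (KO), right lungs labelled Intu knockout, left lungs labelled wild type (WT) and right lungs labelled wild type, with 3 libraries numbered 1, 2 and 3 in each. The parents of all groups carried the knockout allele, and no Cre driver or transgene is named. INTU is a protein of the CPLANE group that is needed for primary cilia and for the Hedgehog signal that passes through them, and the study compared mutant with wild-type lungs and left with right. The labels give neither the deleted part of Intu nor whether the libraries of a group are separate embryos, so that p-values measure the spread between these libraries, which may be technical.

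Retinoic acid is made from vitamin A, which is retinol, through retinal, and it enters the nucleus to switch genes on or off through dimers of a retinoic acid receptor and a retinoid X receptor. Cells set its level by oxidising retinol, by storing retinol as esters and by breaking retinoic acid down, and several genes of storage and breakdown are themselves switched on by retinoic acid. In the mouse embryo, retinoic acid is needed for the lung buds to form from the foregut, and its signal declines as the airways start to branch.

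The promoters of Lrat, Dhrs3 and Cyp26b1 are shown because these were the members that differed between left and right lungs in the comparison of paired libraries given below. RefSeq promoter windows (GRCm38.p6) were found for 4 members, which were these 3 and Rxra. Each stretch runs 5′ to 3′ on the gene's own strand and ends before both the RefSeq start and the first annotated base of the gene in the deposited table. Capitals mark TATAA, a core promoter motif searched on both strands and chosen after the sequences had been read. The Lrat stretch is chr3:82903975-82904224 on the minus strand, the Dhrs3 stretch is chr4:144892577-144892826 on the plus strand, and the Cyp26b1 stretch is chr6:84593909-84594060 on the minus strand.
Lrat: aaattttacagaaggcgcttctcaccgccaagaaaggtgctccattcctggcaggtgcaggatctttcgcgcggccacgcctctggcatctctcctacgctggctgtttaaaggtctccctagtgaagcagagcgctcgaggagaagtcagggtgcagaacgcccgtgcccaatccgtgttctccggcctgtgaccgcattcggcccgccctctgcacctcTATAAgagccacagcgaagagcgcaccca
Dhrs3: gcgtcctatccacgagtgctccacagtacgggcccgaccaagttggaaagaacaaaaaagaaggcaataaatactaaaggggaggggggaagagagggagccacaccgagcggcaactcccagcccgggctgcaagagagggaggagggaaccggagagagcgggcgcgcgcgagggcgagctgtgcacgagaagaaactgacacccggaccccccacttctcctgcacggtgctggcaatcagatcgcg
Cyp26b1: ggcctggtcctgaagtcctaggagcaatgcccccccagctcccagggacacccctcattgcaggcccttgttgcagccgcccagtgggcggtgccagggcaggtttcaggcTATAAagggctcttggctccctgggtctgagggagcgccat
TATAA was present in the Lrat stretch, where its last base lay 24 bases before the end, and in the Cyp26b1 stretch, where it lay 36 bases before the end. It was not found in the Dhrs3 stretch. Among 32851 RefSeq promoter windows, 24.9% held TATAA on either strand. Those windows also take in 50 bases after the start and are longer than the stretches shown. The Cyp26b1 stretch has 152 bases and ends short of the RefSeq start, so that its 36 bases are not a distance to that start. The GC content was 59.2% for Lrat, 61.6% for Dhrs3 and 65.1% for Cyp26b1. The hexamers AGGTCA and GGGTCA, and likewise AGTTCA and GGTTCA, which nuclear receptors of this class bind, were searched on both strands of the windows from 250 bases before to 50 bases after each start. None was found in the windows of these 3 genes, whereas 43.7% of all windows held at least 1. A window of Rxra at chr2:27709042-27709341 held 3, which were GGGTCA and 2 copies of AGGTCA, and 13.1% of all windows held 2 or more. No member window held 2 of these hexamers as a direct repeat with 1, 2 or 5 bases between them, arrangements found in 0.222%, 0.268% and 0.0974% of all windows. These matches describe the letters of the windows only.

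The files used here cover chromosomes 1 to 7, 10, X and part of 8, and 10290103 to 10753386 counts per library fell on them, so that the whole depth of a library is not known from these values. After filtering, 9519 genes were tested. Gli1, a direct Hedgehog target, separated the genotypes in every library, with 151 to 185 CPM (counts scaled by library size) in KO lungs and 345 to 394 CPM in WT lungs. The difference was -1.10 on the log2 scale (adjusted p = 1.54e-08, edgeR's quasi-likelihood test). Intu itself did not separate them (26.2 to 31.4 CPM in KO and 28.2 to 34 CPM in WT lungs, -0.16, adjusted p = 0.162), and the counts cover the whole gene, whatever part is deleted. Hoxa6 separated the sides in every library, with 8.23 to 12.8 CPM in left and 17.3 to 25.3 CPM in right lungs (adjusted p = 0.000717 for left against right). The summed level of 4 measured lung mesenchyme markers of 7 was 1200 to 1330 CPM in KO and 1210 to 1290 CPM in WT lungs, and that of 4 lung epithelium markers of 10 was 435 to 504 CPM in KO and 406 to 437 CPM in WT lungs. The KO left library 1 stood apart by its liver transcripts, with 40.3 CPM of Alb against at most 2.7 CPM in the other 11 libraries.

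**Figure D1:**
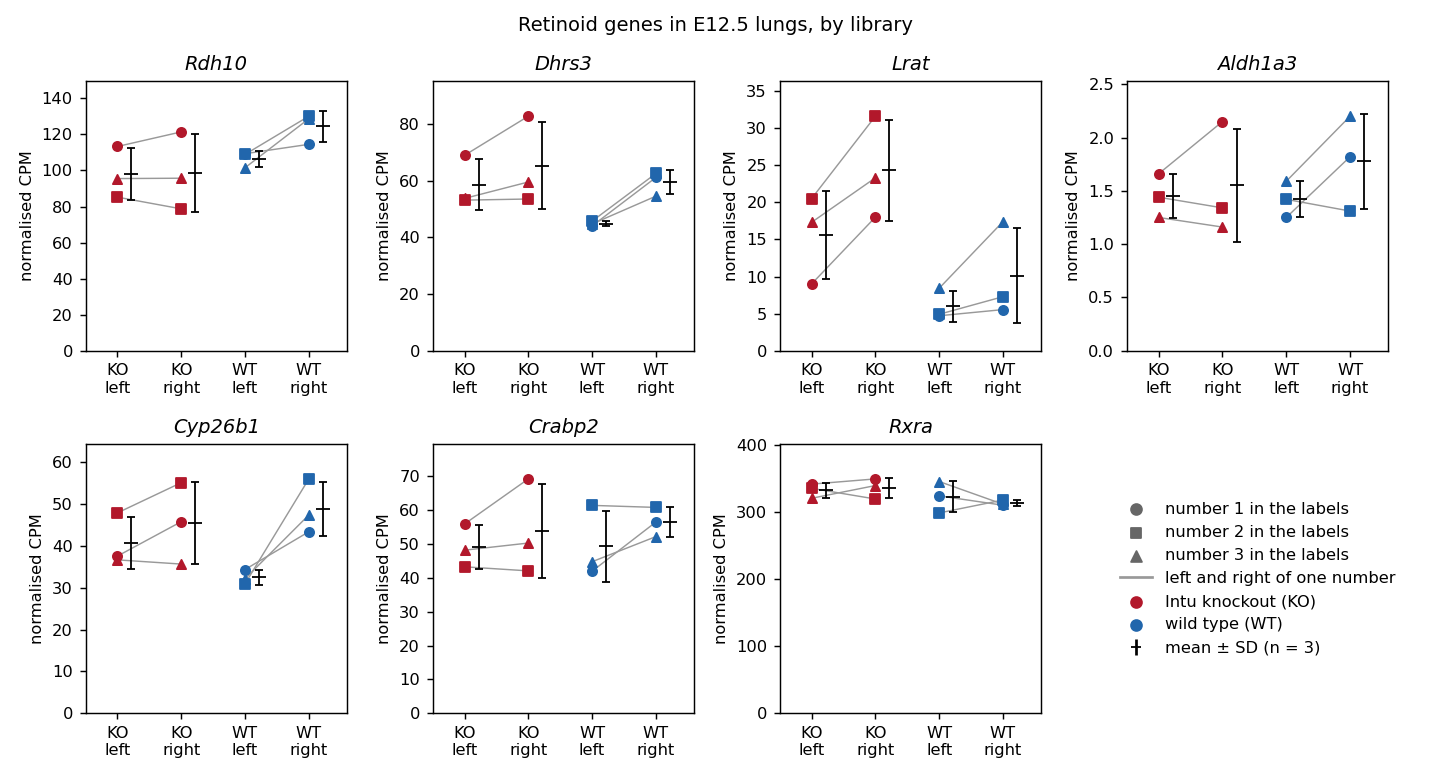
Normalised CPM (linear axes from 0) of the 7 retinoid genes in every library. Circles, squares and triangles are libraries 1, 2 and 3, grey lines join left and right of the same number within a genotype, and bars are the mean ± SD of 3 libraries. Lrat lies higher in KO than in WT libraries of the same side, and the lines of Lrat and Dhrs3 rise to the right in all 6 pairs.

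The members ranged from scarce to abundant. Per kilobase of exon, which allows levels to be compared between genes, Rxra was highest with 51.9 ± 2.53 CPM per kb (mean ± SD of all 12 libraries, as for the values that follow). Crabp2 had 39.4 ± 6.61 CPM per kb, Rdh10 had 25.7 ± 3.89 and Dhrs3 had 19.5 ± 3.78. Cyp26b1 had 7.81 ± 1.6 CPM per kb, Lrat had 2.62 ± 1.61 and Aldh1a3 had 0.335 ± 0.0754. In this order the lowest library of Rxra (47.5 CPM per kb) lay below the highest of Crabp2 (52.3), and the lowest of Rdh10 (18.9) lay below the highest of Dhrs3 (28.3), so that these neighbours overlapped. Cyp26b1 and Lrat overlapped too, with 5.77 CPM per kb in the lowest library of Cyp26b1 and 5.9 in the highest of Lrat. The ranges of Crabp2 and Rdh10 did not overlap, nor did those of Dhrs3 and Cyp26b1 or of Lrat and Aldh1a3. Among all tested genes, Rxra stood at percentile 88.2 of level per kb and Aldh1a3 at percentile 4.71.

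Lrat varied most among the members. Its highest library had 6.71 times the CPM of its lowest, and the SD of its log2 CPM over the 12 libraries was at percentile 99 of all tested genes. For the other 6 members this ratio lay between 1.17 for Rxra and 1.9 for Aldh1a3.

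In the comparison of genotypes over both sides, 1 of the 7 members passed the test, and it was higher in KO lungs. This was Lrat, which encodes lecithin retinol acyltransferase, the enzyme that turns retinol into the esters in which it is stored. Over all tested genes 5.7% passed in this comparison, 2.08% in the higher and 3.62% in the lower direction. The median log2 difference of the 7 members was 0.07, against 0 for all tested genes.

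Lrat (ENSMUSG00000028003, chr3:82892579-82903973, minus strand, GRCm38) had 9, 20.5 and 17.3 CPM in KO left lungs, against 4.71, 4.91 and 8.42 CPM in WT left lungs (libraries 1, 2 and 3). In right lungs it had 18, 31.6 and 23.3 CPM in KO, against 5.54, 7.28 and 17.4 CPM in WT. Within each side every KO library was above every WT library, by a narrow margin on the left (9 CPM in KO library 1 and 8.42 CPM in WT library 3) and on the right (18 CPM in KO library 1 and 17.4 CPM in WT library 3). Higher without overlap on both sides was the case for 2.23% of all tested genes. Across sides the groups overlapped, since KO left library 1 was below WT right library 3.

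The mean level of Lrat was 15.6 ± 5.95 CPM in KO left and 6.01 ± 2.09 CPM in WT left lungs, and 24.3 ± 6.86 CPM in KO right and 10.1 ± 6.41 CPM in WT right lungs (SD, n = 3 each). Over both sides Lrat was 2.5-fold higher in KO lungs, a log2 difference of 1.32 (SE 0.28, adjusted p = 0.013, edgeR's quasi-likelihood test). This test treats the 12 libraries as separate, while left and right libraries of the same number deviated together. With the reads of both sides added up per number, so that 3 KO and 3 WT samples remained, the log2 difference was 1.31 and was not called (adjusted p = 0.142, edgeR), in a fit in which 1.46% of all genes were. With the pair as a random effect in limma-voom it was 1.38 and was called (adjusted p = 0.016), as were 3.61% of all genes.

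Taken by side, the log2 difference of Lrat between KO and WT was 1.37 in left lungs (SE 0.41, adjusted p = 0.156, edgeR) and 1.27 in right lungs (SE 0.38, adjusted p = 0.144), so that neither side passed alone. No other member passed within a side in edgeR or DESeq2, and 3 members on the left and 2 on the right had an unadjusted p under 0.05 in edgeR. Of the 9519 tested genes, 1037 on the left and 1285 on the right had an unadjusted p under 0.05 in that fit. With limma-voom and the pair as a random effect Lrat passed in right lungs (1.41, adjusted p = 0.0382). In left lungs 1.18% of all genes passed and on the right 1.51%. The difference between the sides in this genotype effect was 0.10 (SE 0.56, adjusted p = 1, edgeR). The call over both sides was lost without both libraries of KO number 2 (1.08, adjusted p = 0.0529), KO number 3 (1.30, 0.0597), WT number 1 (1.10, 0.067) or WT number 2 (1.16, 0.0927), and the direction was the same each time. Without WT right library 3, the highest WT library, the difference in right lungs was 1.92 and was called (adjusted p = 0.0217, edgeR), and without both libraries of WT number 3 the difference in left lungs was 1.70 and was called (adjusted p = 0.0393). Without KO left library 1, the library with liver transcripts, the value over both sides was 1.46 (adjusted p = 0.00503).

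Other measures moved with the genotype in these libraries. The summed level of 5 measured smooth muscle markers of 8 was 284 to 336 CPM in KO and 641 to 778 CPM in WT lungs, and all 5 were called lower in KO. That of 6 macrophage markers of 6 was 121 to 155 CPM in KO and 181 to 207 CPM in WT lungs, and all 6 were called lower. That of 6 neuronal and neural crest markers of 7 was 23.3 to 29.3 CPM in KO and 32.1 to 57.6 CPM in WT lungs, and all 6 were called lower. That of 4 heart muscle markers of 6 was 17 to 36.1 CPM in KO and 51 to 81.3 CPM in WT lungs, with 1 of 3 tested called lower and 1 called higher. Myl2 and Nppa of the heart list were at 0 in at least 1 library. Of the lists that mark the lung's own layers, 1 of 3 mesothelium markers was called lower (Upk3b, -0.32, adjusted p = 0.0113), 1 of 4 epithelium markers was called higher (Elf3, 0.54, adjusted p = 0.0329), and 1 of 5 endothelial markers was called higher (Sox18, 0.21, adjusted p = 0.0257). Xist, the RNA of the inactive X chromosome of female cells, had 107 to 985 CPM in KO and 1270 to 2270 CPM in WT lungs. Among the KO libraries Xist was lowest in number 1 and highest in number 2 on both sides, which is also the order of Lrat. In WT left lungs the orders matched too. In WT right lungs they did not, with Xist at 1340, 2270 and 2020 CPM and Lrat at 5.54, 7.28 and 17.4 CPM (libraries 1, 2 and 3). Xist was lower in KO than in WT lungs, while Lrat was higher. The part of these measures in the Lrat difference was not tested. In bulk RNA a smaller number of cells of a type and less RNA per cell cannot be told apart.

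Lrat lies on the chromosome of Intu, 42.2 Mb from it. Of the tested genes on chromosome 3 more than 10 Mb from Intu, 80 of 795 (10.1%) passed the genotype test over both sides. Within 10 Mb of Intu 11 of 78 (14.1%) passed, and on the other chromosomes 452 of 8646 (5.23%). The part of the chromosome in the Lrat difference was not tested. An antisense gene, Rbm46os, overlaps Lrat and had 1 to 9 counts per library. Whether counting used strand is not given in the sources used here, so that reads of the 2 genes may not be separated.

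**Figure D2:**
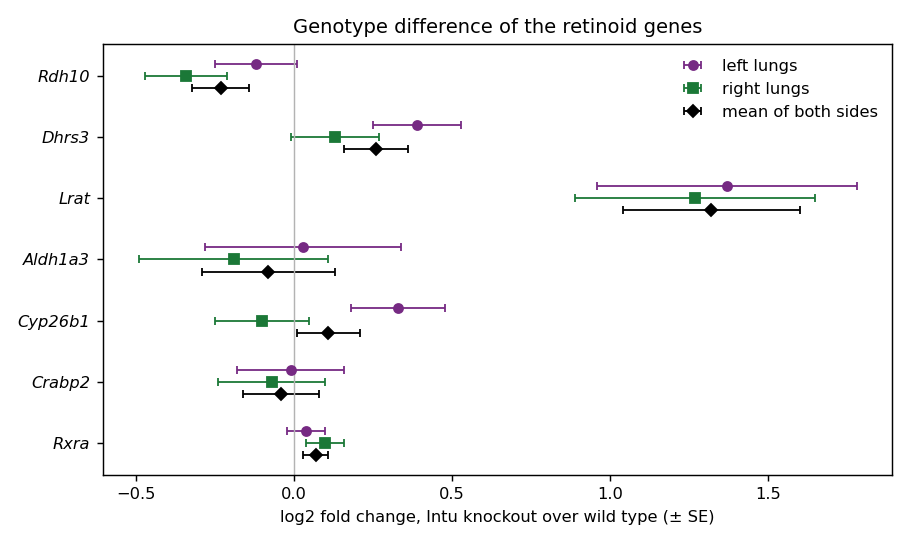
Log2 fold change of KO over WT with its standard error for each member, in left lungs, right lungs and their mean, from edgeR's quasi-likelihood fit of 12 libraries. Lrat stands at 1.37, 1.27 and 1.32, and the other members lie between -0.34 and 0.39.

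Of the genes of synthesis, Rdh10 encodes the dehydrogenase that oxidises retinol to retinal, the limiting step of retinoic acid formation in mouse embryos. Rdh10 (ENSMUSG00000025921, chr1:16105774-16133734, plus strand) had 113, 85.2 and 95.5 CPM in KO left lungs, against 109, 109 and 101 CPM in WT left lungs. On the right it had 121, 78.7 and 95.7 CPM in KO, against 114, 130 and 129 CPM in WT. KO library 1 was the highest KO library on both sides, and the genotypes overlapped on both. The log2 difference between KO and WT was -0.23 over both sides (SE 0.09, adjusted p = 0.177, edgeR), -0.12 in left lungs and -0.34 in right lungs (SE 0.13, adjusted p = 0.267). It passed the test over both sides without KO right library 1 (-0.31, adjusted p = 0.0258, edgeR) and without both libraries of KO number 1 (-0.37, adjusted p = 0.00498), and in right lungs without KO right library 1 (-0.51, adjusted p = 0.0431) or both libraries of KO number 1 (-0.51, 0.0143). Over all libraries and pairs left out, the value ranged from -0.37 to -0.11 over both sides (adjusted p up to 0.461) and from -0.51 to -0.20 in right lungs (up to 0.679), with the weakest value over both sides without KO number 2.

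Dhrs3 encodes the reductase that turns retinal back into retinol and so limits retinoic acid formation. Dhrs3 (ENSMUSG00000066026, chr4:144892827-144928209, plus strand) had 68.9, 53.1 and 53.7 CPM in KO left lungs, against 44, 45.7 and 44.7 CPM in WT left lungs. Right lungs had 82.7, 53.5 and 59.5 CPM in KO, against 61.1, 62.5 and 54.5 CPM in WT. Left lungs of the genotypes did not overlap, which held in this direction for 7.02% of all genes, and right lungs overlapped. The log2 difference between KO and WT was 0.39 in left lungs (SE 0.14, adjusted p = 0.296, edgeR), 0.13 in right lungs (SE 0.14, adjusted p = 0.76) and 0.26 over both (SE 0.10, adjusted p = 0.153). Without both libraries of KO number 2 the value over both sides was 0.36 and passed (adjusted p = 0.0436). Without KO left library 1, the library with liver transcripts, it was 0.20 (adjusted p = 0.278, edgeR), and in right lungs 0.14 (adjusted p = 0.717). KO right library 1 had 1.27 CPM of Alb. Without both libraries of KO number 1 the value over both sides was 0.09 (adjusted p = 0.395), and in right lungs -0.07 (adjusted p = 0.744).

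Aldh1a3 encodes a retinaldehyde dehydrogenase, which makes retinoic acid from retinal, and was the scarcest member. Aldh1a3 (chr7:66390890-66427517, minus strand) had 1.66, 1.44 and 1.25 CPM in KO left and 1.25, 1.42 and 1.59 CPM in WT left lungs. The right lungs had 2.15, 1.34 and 1.16 CPM in KO and 1.82, 1.31 and 2.2 CPM in WT. These levels rest on 12 to 23 counts per library, and the groups overlapped throughout. The log2 difference between KO and WT was -0.08 (SE 0.21, adjusted p = 0.881, edgeR), which is within the counting and replicate error at this depth.

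Cyp26b1 encodes a cytochrome P450 that oxidises retinoic acid and so clears it. Cyp26b1 (ENSMUSG00000063415, chr6:84571414-84593908, minus strand) had 37.5, 47.8 and 36.6 CPM in KO left lungs, against 34.3, 30.9 and 32.1 CPM in WT left lungs. In right lungs it had 45.7, 55 and 35.6 CPM in KO, against 43.3, 55.9 and 47.3 CPM in WT. On the left all 3 KO libraries were above the WT libraries, as was the case for 7.02% of all genes. On the right the genotypes overlapped. The log2 difference between KO and WT was 0.33 in left lungs (SE 0.15, adjusted p = 0.45, edgeR), -0.10 in right lungs (SE 0.15, adjusted p = 0.835) and 0.11 over both (SE 0.10, adjusted p = 0.612).

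Of the binding genes, Crabp2 encodes a cytoplasmic protein that carries retinoic acid to its receptors in the nucleus. Crabp2 (chr3:87948666-87953376, plus strand, 47.2 Mb from Intu) had 55.8, 43.2 and 48.1 CPM in KO left and 41.9, 61.3 and 44.7 CPM in WT left lungs. On the right it had 69.1, 42 and 50.2 CPM in KO and 56.4, 60.7 and 52.1 CPM in WT. The genotypes overlapped on both sides, with a log2 difference of -0.04 (SE 0.12, adjusted p = 0.903, edgeR).

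Rxra encodes a retinoid X receptor, the partner with which retinoic acid receptors bind DNA, and it was the steadiest member. Rxra (chr2:27676440-27762957, plus strand) had 342, 336 and 321 CPM in KO left and 325, 299 and 346 CPM in WT left lungs. Right lungs had 350, 320 and 340 CPM in KO and 311, 319 and 312 CPM in WT. Right lungs of the genotypes did not overlap, with a lowest KO library of 320 CPM and a highest WT library of 319 CPM, as was the case in this direction for 8.47% of all genes. Rxra had a log2 difference of 0.07 over both sides (SE 0.04, adjusted p = 0.358, edgeR).

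Left and right libraries that carry the same number within a genotype deviated together from their group means (correlations of 0.253 to 0.486 in 6 of 6 pairs, against -0.393 to -0.00284 for different numbers), and the sides were therefore also compared within pairs. Deviations within a group add up to 0. The values for different numbers therefore fall when those for the same number rise, and are no separate evidence of pairing. In the fit with pairs, 3 of the 7 members passed the test over both genotypes, and all 3 were lower in left lungs. These were Lrat, Cyp26b1 and Dhrs3, the genes of retinol storage, retinoic acid breakdown and retinal reduction. Over all tested genes 1.33% passed in that fit, 0.672% in the lower direction, and the median log2 difference was -0.20 for the 7 members and 0 for all tested genes. In the fit without pairs none of the 7 was called by edgeR, and 0.084% of all genes were. At an unadjusted p under 0.05 it had 3 members, the same ones, and 504 of the 9519 tested genes. Neither DESeq2 nor limma-voom with the pair as a random effect called any of the 7.

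**Figure D3:**
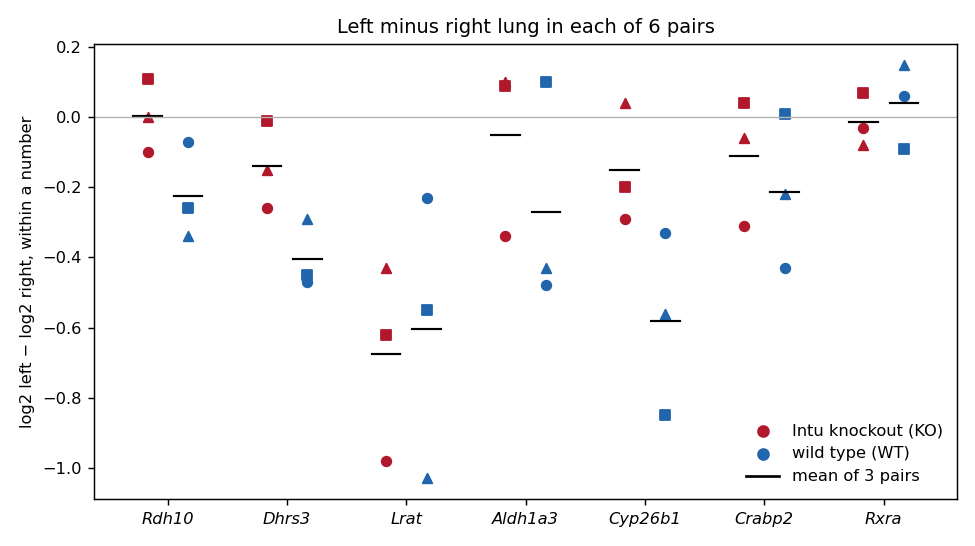
Log2 CPM of the left minus the right library of the same number within a genotype, for each member. Circles, squares and triangles are numbers 1, 2 and 3, and bars are means of 3 pairs. Points below 0 are lower on the left, which was the case in 6 of 6 pairs for Lrat and Dhrs3 and in 5 of 6 for Cyp26b1 and Rdh10.

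For Lrat, the left lung of KO pairs 1, 2 and 3 had 50.1%, 64.9% and 74.3% of the CPM of the right lung. In WT pairs it had 85%, 67.5% and 48.3%. The left library was the lower in all 6 pairs, as it was for 3.05% of all tested genes. The log2 difference of left against right was -0.68 over both genotypes in the fit with pairs (SE 0.10, adjusted p = 0.000187, edgeR), against -0.69 (SE 0.28, adjusted p = 0.887) without pairs and -0.64 (adjusted p = 0.294) in limma-voom with the pair as a random effect.

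By genotype, the Lrat difference with pairs was -0.65 in KO lungs (SE 0.12, adjusted p = 0.00807, edgeR) and -0.72 in WT lungs (SE 0.16, adjusted p = 0.0289). In the KO comparison 0.452% of all genes passed, 0.189% in the lower direction, and in the WT comparison 0.662%, with 0.389% in the lower direction. The KO call was lost without KO pair 1 (-0.53, adjusted p = 0.0708) or KO pair 2 (-0.67, 0.0718), and the WT call without WT pair 2 (-0.78, 0.134) or WT pair 3 (-0.41, 0.814). The side difference did not differ detectably between genotypes (0.07, SE 0.20, adjusted p = 0.998). Among the 4 group means of Lrat, the highest was KO right and the lowest WT left.

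For Cyp26b1, the left lung of KO pairs 1, 2 and 3 had 82%, 86.9% and 103% of the CPM of the right lung. In WT pairs it had 79.2%, 55.3% and 67.9%. WT left and right lungs did not overlap, which held in this direction for 4.24% of all genes, while KO left and right lungs did. The log2 difference with pairs was -0.16 in KO lungs (SE 0.09, adjusted p = 0.598, edgeR) and -0.59 in WT lungs (SE 0.09, adjusted p = 0.000355), and -0.37 over both (SE 0.06, adjusted p = 0.001). Without pairs the WT value was -0.59 with an adjusted p of 0.701, where 0.0105% of all genes passed, and with pairs but without WT pair 2 it was -0.45 with an adjusted p of 0.0635.

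Although Cyp26b1 passed in WT and not in KO lungs, the difference between these effects did not pass. The difference of the side effects between genotypes was 0.43 (SE 0.12, adjusted p = 0.956, edgeR with pairs), in a test in which 0.021% of all genes passed. No member passed that test in edgeR, DESeq2 or limma-voom. In the fit with pairs 3 members had an unadjusted p under 0.05, as did 407 of the 9519 tested genes. Without pairs the Cyp26b1 difference was 0.43 (SE 0.21, adjusted p = 1).

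For Dhrs3, the left lung of KO pairs 1, 2 and 3 had 83.4%, 99.3% and 90.3% of the CPM of the right lung. In WT pairs it had 72%, 73.1% and 82%. WT left and right lungs did not overlap, which held in this direction for 4.24% of all genes, and KO left and right lungs did. The log2 difference with pairs was -0.15 in KO lungs (SE 0.07, adjusted p = 0.486, edgeR) and -0.41 in WT lungs (SE 0.07, adjusted p = 0.002), and -0.28 over both (SE 0.05, adjusted p = 0.00191). The WT call was lost without WT pair 1 (-0.37, adjusted p = 0.0755) or WT pair 2 (-0.38, 0.0807). The difference of the side effects between genotypes was 0.26 (SE 0.10, adjusted p = 0.998).

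The other 4 members gave no call between sides over both genotypes. Rdh10 had the lower value on the left in 5 pairs of 6, although KO pair 3 was nearly level (95.5 against 95.7 CPM). The share of all genes lower on the left in at least 5 pairs was not counted. The log2 difference of Rdh10 was -0.11 (SE 0.04, adjusted p = 0.285, edgeR with pairs). By genotype it was 0.00 in KO and -0.22 in WT lungs (SE 0.06, adjusted p = 0.11). The WT value passed without KO pair 2 (-0.22, adjusted p = 0.0482). Crabp2 did so in 4 pairs of 6 (-0.16, SE 0.06, adjusted p = 0.218). Aldh1a3 and Rxra did so in 3 pairs of 6 each, with differences of -0.20 (SE 0.21, adjusted p = 0.791) and 0.01 (SE 0.04, adjusted p = 0.942).

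Marker lists of other cell types were set beside the side difference. The summed level of 3 measured mesothelium markers of 7 was 238 to 305 CPM in KO left and 234 to 314 CPM in KO right lungs, and 262 to 310 CPM in WT left and 314 to 339 CPM in WT right lungs. Of these, Lrrn4 was lower in left lungs (-0.25, adjusted p = 0.00824, edgeR with pairs), while Upk3b (-0.04) and Wt1 (-0.02) were not called. Of the 4 measured epithelial markers Sox2 was lower in left lungs (-0.25, adjusted p = 0.0184). The summed epithelial level was 435 to 470 CPM in KO left and 443 to 504 CPM in KO right lungs. In WT lungs it was higher on the left, with 422 to 437 CPM against 406 to 419 CPM on the right. Of the 5 measured endothelial markers of 8 Sox18 was higher in left lungs (0.20, adjusted p = 0.014). The summed endothelial level was 606 to 769 CPM in KO left and 597 to 744 CPM in KO right lungs, and 638 to 699 CPM in WT left and 651 to 655 CPM in WT right lungs. The summed level of 4 measured liver markers of 6 was 5.37 to 88 CPM in KO left and 4.22 to 6.83 CPM in KO right lungs, and 6.36 to 9.82 CPM in WT left and 6.12 to 9.08 CPM in WT right lungs. Fgb of that list was at 0 in at least 1 library, and none of the 5 listed stomach and oesophagus markers was among the genes analysed here. The part of these measures in the side differences was not tested. Both libraries of KO number 1, of which the left one stood apart by its liver transcripts, were also left out. The difference over both genotypes in the fit with pairs was then -0.62 for Lrat (adjusted p = 0.000334, edgeR). It was -0.34 for Cyp26b1 (adjusted p = 0.00414) and -0.24 for Dhrs3 (adjusted p = 0.0171).

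Across the 12 libraries the members did not move as a single group. Within groups, the deviations of Dhrs3 from its group means correlated with those of Rdh10 (Pearson's r = 0.863) and of Crabp2 (0.831), and those of Crabp2 with those of Rdh10 (0.778). KO number 1 was the highest KO library for these 3 genes on both sides. The deviations of Lrat ran the other way against Dhrs3 (-0.689) and Crabp2 (-0.585), and KO number 1 was the lowest KO library for Lrat on both sides. These values are descriptions over 12 libraries, which share their pairs and their scaling.

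Among 7746 tested protein-coding genes, those whose log2 CPM over the 12 libraries was most like that of each member were named by Pearson's r. For Lrat these were Cep89 (0.957), Fgf2 (0.944) and Pan3 (0.916), and for Cyp26b1 they were Cyth3 (0.914), Mbd4 (0.881) and Npnt (0.876). For Dhrs3 they were Disp1 (0.934), Flrt3 (0.902) and Adora1 (0.897), and for Rdh10 they were Add2 (0.938), Slc44a5 (0.92) and Twist2 (0.913). For Crabp2 they were Gstm7 (0.882), Homer3 (0.88) and Meis2 (0.864). For Aldh1a3 they were Tnnt2 (0.868), Ccdc6 (0.866) and Mylk3 (0.818), and for Rxra they were Abca2 (0.836), Paip2b (0.82) and Clstn3 (0.813). No other member was among the 3 genes most like any member.

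The wider retinoid pathway was read from 8 lists of 76 genes, of which 44 were in the files used here and 32 were tested. The genotype test over both sides called 3 of the 32, with 2 higher and 1 lower in KO lungs. Of all tested genes 5.7% were called, 2.08% higher and 3.62% lower, so that the count is near that share. The median log2 difference was 0.04 against 0 for all tested genes. Besides Lrat, the called genes were Lpl, a lipase that also releases retinol from its esters, and Rarres1, named for its induction by a synthetic retinoid in human skin. Rarres1 had 1.92 to 2.44 CPM in KO left and 5.09 to 5.98 CPM in WT left lungs, and 2.7 to 3.74 CPM in KO right and 4.85 to 6.89 CPM in WT right lungs. No KO library reached the lowest WT library, as was the case for 2.65% of all genes. The log2 difference of Rarres1 was -1.10 (SE 0.15, adjusted p = 0.000485, edgeR), it passed within left lungs (-1.26, adjusted p = 0.0101) and within right lungs (-0.93, adjusted p = 0.0335), and it passed with left and right counts summed (-1.08, adjusted p = 0.0195). Lpl was 0.22 higher in KO lungs (SE 0.05, adjusted p = 0.0207), and this call was lost with summed counts (adjusted p = 0.163).

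By role, 2 of 4 tested genes of uptake, carriers and storage passed the genotype test over both sides (Lrat and Lpl), against 5.7% of all tested genes, and neither passed with summed counts. Lipe, a lipase that splits retinyl esters, had a difference of 0.08. None of 8 genes of retinol and retinal conversion passed by edgeR, DESeq2 or limma-voom, and 3 had an unadjusted p under 0.05 in edgeR. Among the 9519 tested genes, 1875 had an unadjusted p under 0.05 in that comparison. Adh1, an alcohol dehydrogenase that oxidises retinol, had 117 to 374 CPM in KO left and 108 to 169 CPM in WT left lungs, and 124 to 293 CPM in KO right and 81.4 to 142 CPM in WT right lungs (0.82 over both sides, SE 0.26, adjusted p = 0.088), and Adh5 (-0.03) and Rdh13 (0.00) were close to level. Of the 2 tested binding proteins, Fabp5, which carries retinoic acid and fatty acids, had a difference of -0.16 (adjusted p = 0.264). Of the 2 tested receptors, Rxrg had 0.38 (SE 0.20, adjusted p = 0.303) at 2.56 to 4.61 CPM as group means. None of 3 coregulators passed with any of these tools and none had an unadjusted p under 0.05, with 0.06 and -0.01 for the coactivators Ncoa2 and Ncoa3.

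Of 24 genes known to respond to retinoic acid in other settings, 15 were tested, and Lrat and Rarres1 were the ones that passed between genotypes over both sides. Between sides, 4 of the 15 were lower in left lungs and none was higher in the fit with pairs, in which 0.672% of all tested genes were lower. A negative sign was found for 12 of the 15, against 49.2% of all tested genes. The median of the 15 was -0.15, against 0 for all tested genes. The 4 were the members Lrat, Cyp26b1 and Dhrs3, and Hoxa5, which encodes a homeodomain transcription factor. The list was chosen with earlier results of these data known, and Hoxa5 was also a check of the side labels. These counts therefore describe the list and are no test of it. Without pairs none of the 15 was called by edgeR or DESeq2, and 5 had an unadjusted p under 0.05 in each. Of the 9519 tested genes, 504 were under 0.05 in edgeR and 379 in DESeq2. Limma-voom with the pair as a random effect called 1 of the 15 (Hoxa5).

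Hoxa5 had a log2 difference of left against right of -0.25 (adjusted p = 9.93e-05, edgeR with pairs), -0.17 in KO (adjusted p = 0.185) and -0.33 in WT lungs (adjusted p = 0.000353). Hoxa3 (-0.17, adjusted p = 0.099), Hoxa4 (-0.15, adjusted p = 0.177) and Hoxa2 (0.06, adjusted p = 0.702) were not called. Neighbouring Hoxa genes have overlapping and antisense transcripts, and reads of these may not be separated without strand.

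Over all 32 tested genes of the wider lists, 4 were lower and 1 was higher in left lungs in the fit with pairs, against 1.33% called and 0.672% lower among all tested genes. Of the 32, 23 had a negative sign, against 49.2% of all tested genes, and their median was -0.09. All of these lists were chosen with earlier results known, so that the counts describe the lists and are no test of them. The gene that was higher was Adh1 (0.24, SE 0.05, adjusted p = 0.00505, edgeR with pairs), with 0.13 in KO (adjusted p = 0.488) and 0.34 in WT lungs (adjusted p = 0.00945). Abundant genes of the pathway such as Nr2f2, an orphan nuclear receptor (0.00), Tbx5, a transcription factor of the lung mesenchyme (-0.09), and Rxra (0.01) were not called. By genotype, the fit with pairs called 1 of the 32 in KO lungs (Lrat), against 0.452% of all tested genes, and 5 in WT lungs, against 0.662%. Of these 5, Lrat, Cyp26b1, Dhrs3 and Hoxa5 were lower on the left and Adh1 was higher. Without pairs edgeR called none of the 32 in either genotype, and neither DESeq2 nor limma-voom called any.

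**Figure D4:**
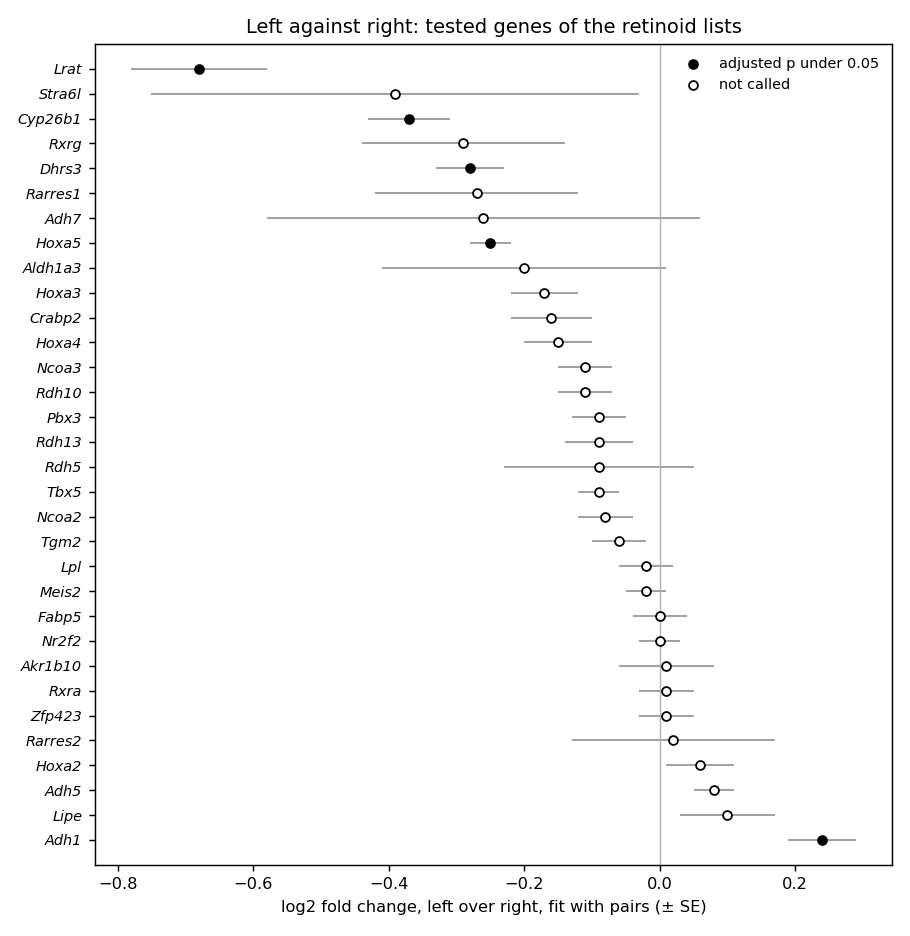
Log2 fold change of left over right lungs, with its standard error, for the 32 tested genes of the retinoid lists in the fit with pairs over both genotypes. Filled points passed an adjusted p of 0.05, and these were 4 genes below 0 (Lrat, Cyp26b1, Dhrs3 and Hoxa5) and Adh1 above 0.

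Several listed genes were at 0 in at least 1 library. They were Rdh1, Rdh7, Rdh9, Rdh16, Dhrs9 and Adh4 of retinol and retinal conversion, Aldh8a1 of retinoic acid formation, Rbp7 and Rpe65 of the carriers and storage, and Stra8 and Hoxd4 of the responsive genes, and none of them was tested.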

How the data were processed

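Total RNA from 12 lung libraries was sequenced. The table the authors deposited holds unnormalised read counts by gene, made with FastQC, HISAT2, GRCm38 and featureCounts per the submitters' processing notes, with no version stated there. 1 incomplete row was left out. Counts were filtered with filterByExpr (minimum count 10, minimum total 15), scaled with TMM factors of 0.992 to 1.01 and tested by quasi-likelihood (glmQLFit, glmQLFTest) in edgeR 4.0.16 under R 4.3.3, with 4 groups fitted together and 8 residual degrees of freedom. P-values were adjusted by Benjamini-Hochberg over 9519 genes within a comparison, with a threshold of 0.05. CPM used TMM-scaled totals, and correlations used log2 CPM with a prior count of 2. These totals cover only the chromosomes in the files, and a member with few counts, such as Aldh1a3, is measured with the largest counting error.

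Replicate numbers pair left and right within a genotype, from the data and not from the labels: correlations of deviations were 0.253 to 0.486 in 6 pairs. The fit with pairs as blocks had 4 residual degrees of freedom. The pairing check gave -0.103 to -0.0423 for equal numbers across genotypes, which do not pair. No 2 replicates were duplicates, since their counts differed by a chi-square of 4.57 to 13.6 per degree of freedom.

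The members and all gene lists were chosen with earlier results of these data known. A further 3 listed genes are not reported here and stay out of the list counts. Named were the members, the label checks, listed genes that were called or had the highest levels, and the 3 genes most like each member. Alternatives were DESeq2 1.42.0, its scaling, no filter, limma 3.58.1 voom, summed sides, blocks and left-out libraries. The scripts were tested on simulated data. Promoter windows were read from RefSeq.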

Additional observations from a re-analysis of the deposited data

How the results depend on the processing

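Of the values of single members, 65 of 1110 recomputed values that were not called had the other sign, and no called value changed direction. The number of members called over both sides between genotypes (1, with 543 of all genes) was 3 with no filter on low counts (1084 genes) and 0 with summed sides (139 genes), and limma-voom called 344 genes. In left lungs (0 members, 112 genes) it was 2 with no filter (510 genes), and DESeq2 called 193 genes. In right lungs (0 and 144) it was 2 with no filter (595 genes) and 1 with limma-voom, and DESeq2 called 224 genes. Between sides over both genotypes (0 and 8), no filter gave 3 (79 genes), DESeq2 16 genes, limma-voom 23 genes, and the replicate block by pairs 3 members and 127 genes. In KO lungs (0 and 0) no filter gave 1 (31 genes), DESeq2 4 genes, limma-voom 2 genes, and the pairs 1 member and 43 genes. In WT lungs (0 and 1) no filter gave 3 (46 genes), DESeq2 11 genes, limma-voom 13 genes, and the pairs 3 members and 63 genes. The interaction (0 and 0) had 6 genes with no filter and 2 with pairs. Scaling by DESeq2's size factors moved none of these counts by over 1.5 times.

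With the replicate number as a block across genotypes, which the check of deviations does not bear out, 652 genes were called over both sides, 1 member (Lrat) and 177 genes in left lungs and 1 member (Lrat) in right lungs. The replicate block by pairs changed no call of a member other than those given above.

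Leaving out each library, or both libraries of a number (chosen after seeing the data), gave 0 to 2 members and 263 to 636 genes between genotypes over both sides, 0 to 1 and 45 to 137 in left lungs, and 0 to 1 and 48 to 175 in right lungs. Between sides it gave 0 members with 1 to 8 genes over both genotypes, 0 with 0 to 1 in KO and 0 with 0 to 7 in WT lungs, and 0 with 0 for the interaction. In the fit with pairs it gave 3 members in each case over both genotypes, 0 to 1 in KO lungs and 0 to 4 in WT lungs. Depth limits Aldh1a3 most, with 12 to 23 counts per library. The cause of these shifts was not tested.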
